A study of Mus musculus with 8 samples.

Results

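The nuclear genes of the mitochondrial ribosomal proteins, with symbols starting Mrpl for the large and Mrps for the small subunit, were taken by symbol from the expression table of activated muscle stem cells (ASCs). The symbol rule found 76 of 18877 genes, 47 of the large and 29 of the small subunit. ASCs were sorted as CD34-, Dendra2+, DAPI- cells from the tibialis anterior muscle of mice at 2 dpi (days post injury), after 50 uL of 1.2% BaCl2. There were 4 wild-type and 4 mfn2-/- libraries of total RNA, the latter from mice in which the gene of mitofusin 2, an outer-membrane protein of mitochondrial fusion, was targeted. Both groups carried a mito-Dendra2 allele driven by Pax7-Cre(ERT2), and both received tamoxifen at 75 mg/kg daily for 5 days. Since Cre acts in Pax7+ cells and their progeny, the label and the deletion are meant to be limited to that lineage. The labels give neither the age nor the sex of the mice, and nothing says whether each library came from 1 mouse.

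The mitochondrial ribosome translates the few messenger RNAs made from mitochondrial DNA, which encode core subunits of the respiratory chain and of ATP synthase. Its ribosomal RNAs come from the mitochondrial genome, whereas all its proteins are encoded in the nucleus, made in the cytosol and imported. Some of them have relatives in bacterial ribosomes and others are found in mitochondria alone. Stem cells of muscle raise their mitochondrial content as they leave quiescence.

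As a description, promoters are shown for 5 members. They are the 4 tested members with the smallest p by genotype (Mrpl17, Mrps26, Mrpl40 and Mrpl23) and Mrpl52, the most abundant member. Each runs from 250 bases before to 50 after the transcription start in RefSeq (build GRCm38.p6), 5′ to 3′ on the strand of the gene, and capitals mark every match on either strand to the ETS motif CCGGAAG, the NRF1 motif GCGCATGC, the YY1 motif AAGATGGC or the E-box CACGTG.
Mrpl17 (chr7:105811038-105811337, minus strand): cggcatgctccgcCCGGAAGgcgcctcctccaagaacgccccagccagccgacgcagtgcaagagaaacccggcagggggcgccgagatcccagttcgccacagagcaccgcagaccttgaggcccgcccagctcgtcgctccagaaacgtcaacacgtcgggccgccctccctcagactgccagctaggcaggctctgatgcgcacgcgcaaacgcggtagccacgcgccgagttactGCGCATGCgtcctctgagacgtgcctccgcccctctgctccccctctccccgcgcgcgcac
Mrps26 (chr2:130563507-130563806, plus strand): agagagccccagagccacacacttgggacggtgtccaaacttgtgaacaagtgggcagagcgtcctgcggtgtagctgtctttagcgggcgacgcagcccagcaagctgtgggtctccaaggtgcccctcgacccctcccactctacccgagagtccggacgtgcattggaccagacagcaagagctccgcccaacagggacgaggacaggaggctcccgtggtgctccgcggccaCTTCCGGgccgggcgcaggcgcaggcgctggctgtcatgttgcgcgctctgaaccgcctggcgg
Mrpl40 (chr16:18876588-18876887, minus strand): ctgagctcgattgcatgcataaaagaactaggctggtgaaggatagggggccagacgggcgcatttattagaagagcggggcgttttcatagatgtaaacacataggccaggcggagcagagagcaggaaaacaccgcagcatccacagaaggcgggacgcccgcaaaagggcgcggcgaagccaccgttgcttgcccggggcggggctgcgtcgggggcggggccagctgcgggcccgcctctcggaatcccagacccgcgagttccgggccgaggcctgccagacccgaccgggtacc
Mrpl23 (chr7:142532782-142533081, plus strand): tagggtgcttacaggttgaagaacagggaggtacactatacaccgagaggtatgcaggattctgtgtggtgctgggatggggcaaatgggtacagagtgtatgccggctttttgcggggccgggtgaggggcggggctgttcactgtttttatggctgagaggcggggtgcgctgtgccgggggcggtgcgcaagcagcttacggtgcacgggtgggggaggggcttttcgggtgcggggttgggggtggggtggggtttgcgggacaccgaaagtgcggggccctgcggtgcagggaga
Mrpl52 (chr14:54426659-54426958, plus strand): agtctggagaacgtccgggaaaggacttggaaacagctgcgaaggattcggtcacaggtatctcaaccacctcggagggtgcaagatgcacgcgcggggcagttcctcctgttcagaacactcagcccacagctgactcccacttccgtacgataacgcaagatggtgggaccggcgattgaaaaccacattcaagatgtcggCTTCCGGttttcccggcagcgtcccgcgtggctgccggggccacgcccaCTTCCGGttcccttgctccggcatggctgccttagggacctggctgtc
These factors are known regulators of nuclear genes for mitochondrial proteins. Mrpl17 held 1 ETS and 1 NRF1 match, Mrps26 held 1 ETS match, Mrpl52 held 2 ETS matches, and in Mrpl40 and Mrpl23 none of these motifs occurred in the window. RefSeq windows were found for 67 of the 76 members, 73 windows in all. The ETS motif was in 32.9% of them, against 16.5% of the windows of genes tested here and 8.86% of all 32851 windows. The NRF1 motif was in 10.96% of the members' windows, 5.08% of those of genes tested and 2.71% of all. For the YY1 motif the shares were 16.4%, 4.17% and 2.75%, and for the E-box 9.59%, 10.1% and 7.15%. At least 1 of the ETS, NRF1 and YY1 motifs was in 49.3% of the members' windows and also in 49.3% of those of cytosolic ribosomal protein genes. By subunit, the ETS motif was in 28.3% of the large-subunit and 40.7% of the small-subunit windows, and NRF1 in 15.2% and 3.70%. The matches describe the letters of these windows and say nothing of what binds there.

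Values are the authors' normalized read counts, in which the reads of each library were divided by 1 size factor. Depth was 1880464 reads in wild-type replicate 1, 2269009 in mfn2-/- replicate 4 and 4080836 to 7508215 in the others. A gene with 0 reads may have had a true level of up to 3 reads, which was worth 6.82 normalized reads in wild-type replicate 1, 5.50 in mfn2-/- replicate 4 and 1.60 to 3.11 elsewhere. Mfn2, the targeted gene, stood at 229 ± 19.98 normalized reads in the wild-type group and at 126 ± 31.4 in the mfn2-/- group (SD, n = 4 each), without overlap (limma adjusted p = 0.0848). Whether the remaining reads fall in the deleted part of the gene was not examined. Reads of 4 Y-linked genes (Uty, Kdm5d, Eif2s3y and Ddx3y) numbered 807 to 2336 in wild-type replicates 3 and 4 and in mfn2-/- replicates 1 and 2, and 0 in the other 4 libraries. Pax7 was present in all libraries (582 to 803), and the summed level of 7 muscle stem cell markers was 4939 to 8208 in wild-type and 11549 to 17830 in mfn2-/- libraries. Most of the rise in this sum was Des, whose mean went from 2156 (wild-type) to 7969 (mfn2-/-), with a limma adjusted p of 0.0019. Vcam1 rose from 1380 to 3194 and Myod1 from 172 to 828 (limma adjusted p = 5.2e-04 and 1.5e-04). Smaller changes were those of Cdh15 (557 to 724), Pax7 (662 to 715) and Myf5 (207 to 219), while Itga7 fell from 1249 to 621. The 6 markers of fibroadipogenic and tendon cells (Pdgfra, Col1a1, Dcn, Lum, Tnmd, Scx) summed to 102338 to 148347 in wild-type and 367 to 657 in mfn2-/- libraries, where Pdgfra, Lum and Tnmd were at 0 in mfn2-/- replicate 4. The 3 leukocyte markers found summed to 9.62 to 91.0 over all libraries, and the 3 endothelial markers to 387 to 893 in wild-type and 573 to 1074 in mfn2-/- libraries. The part of these cell types in the values below was not tested. In bulk RNA, fewer cells of a type and less RNA per cell cannot be told apart.

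Mitochondrial ribosomal protein transcripts were scarce in all libraries. Together the 76 members took 0.0815%, 0.0771%, 0.104% and 0.0937% of the normalized total in wild-type replicates 1 to 4. In mfn2-/- replicates 1 to 4 they took 0.0795%, 0.0700%, 0.118% and 0.114%. The groups overlapped, with 0.0891% ± 0.0122 in wild-type and 0.0953% ± 0.0242 in mfn2-/- ASCs (SD, n = 4 each), and in both groups replicates 3 and 4 lay above replicates 1 and 2. Counting error was small beside this, with a Wilson 95% confidence interval of 0.0775% to 0.0857% in wild-type replicate 1 and 0.109% to 0.118% in mfn2-/- replicate 4. The summed level of 5 cycling markers (Mki67, Top2a, Mcm2, Mcm5, Ccnb1) showed the same split, at 277 to 350 normalized reads in wild-type replicates 1 and 2, 1307 to 1508 in wild-type replicates 3 and 4, 163 to 220 in mfn2-/- replicates 1 and 2 and 643 to 1202 in mfn2-/- replicates 3 and 4. Mki67, Mcm2, Mcm5 and Ccnb1 each showed this split too, and Mki67 alone had 930 and 727 in wild-type replicates 3 and 4. Top2a did not, at 42.1 in mfn2-/- replicate 4 against 52.7 and 56.9 in mfn2-/- replicates 1 and 2. The part of these markers in the level of the members was not tested. Labels give no meaning to the pair of replicate numbers.

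**Figure D1:**
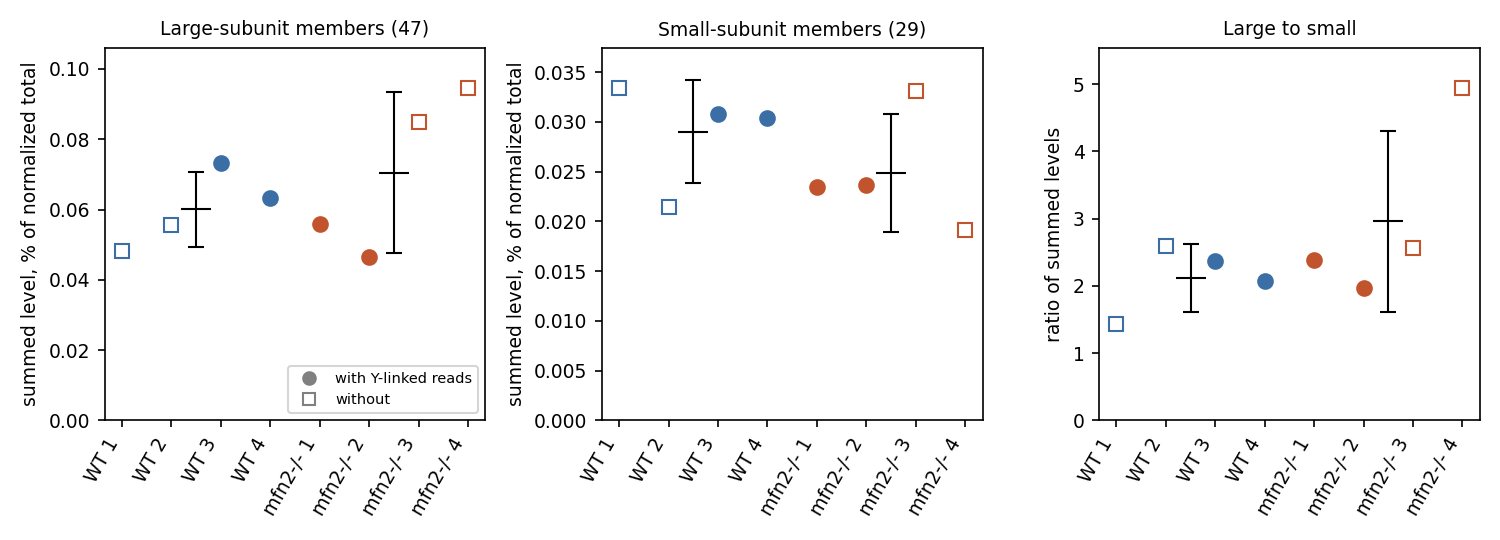
Summed level of the large-subunit and small-subunit members as % of the normalized total, and the ratio of the sums, in each of 8 libraries. Filled circles are libraries with Y-linked reads, open squares those without, and black bars give the mean ± SD of 4 libraries. The ratio was 1.44 to 2.59 in wild-type and 1.96 to 2.56 in mfn2-/- replicates 1 to 3, and 4.95 in mfn2-/- replicate 4.

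Large-subunit transcripts outweighed small-subunit transcripts in every library. The ratio of the summed levels was 1.44, 2.59, 2.38 and 2.08 in wild-type replicates 1 to 4 and 2.39, 1.96, 2.56 and 4.95 in mfn2-/- replicates 1 to 4. The means were 2.12 ± 0.50 in wild-type and 2.97 ± 1.35 in mfn2-/- ASCs (SD, n = 4 each). For this ratio of sums the higher mean rested on mfn2-/- replicate 4, without which it was 2.30 ± 0.31, inside the wild-type range. When each member counted equally, as the mean log2(value + 1) of the large-subunit minus that of the small-subunit members, the difference was -0.62, 0.39, -0.083 and 0.11 in wild-type replicates 1 to 4 and 0.69, 0.46, 0.54 and 1.40 in mfn2-/- replicates 1 to 4. By this measure the groups did not overlap, with the lowest mfn2-/- value (0.46) above the highest wild-type value (0.39), and this held without mfn2-/- replicate 4. It is given as a description with no test, since its members were chosen with results known. Members at 0 reads enter this measure. They were 13 large-subunit and 5 small-subunit members in wild-type replicate 1 (-0.62), and 10 and 10 in mfn2-/- replicate 4 (1.40). The measure was not recomputed with another pseudocount or with members reassigned by structure. Mrpl52 gave 18.3% to 31.996% of the large-subunit sum, and without it the ratio was 1.53 ± 0.28 in wild-type and 2.30 ± 1.06 in mfn2-/- ASCs. Mrps30 and Mrps18a carry small-subunit symbols but are known from the structure as proteins of the large subunit, and Mrps36 is known as a subunit of the oxoglutarate dehydrogenase complex. With these reassigned, the ratio was 2.55 ± 0.67 in wild-type and 3.64 ± 1.80 in mfn2-/- ASCs.

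No member was called by genotype in the limma fit. A mean level of 10 or more across libraries, the bar for testing, was reached by 67 of the 76 members, 41 of the large and 26 of the small subunit. With limma on log2(value + 1) and Benjamini-Hochberg adjustment over 11754 genes, 0 of the 67 members had an adjusted p under 0.05, where 10.4% of all genes tested did. The lowest adjusted p of a member was 0.189. At an unadjusted p under 0.05 the members' count was 1 (Mrpl17), where the share of all genes was 24.8%. On whole reads, edgeR (9.85% of all genes), edgeR with the size factors of DESeq2 (9.79%) and DESeq2 (14.8%) called 0 members as well, with 1, 1 and 2 at an unadjusted p under 0.05. Groups did not overlap for 3 of the 67 members (Mrpl17, Mrpl23 and Mrps35), against 19.5% of all genes. Without mfn2-/- replicate 4, the library with the fewest genes detected, the count called was again 0. Limma with estimated library weights called 1 of the 67 members, Mrps26 (log2 difference -2.15, adjusted p = 0.0409). That setting called 3037 of all 11754 genes, where the fit without weights called 1217. Its smallest weight, 0.17, fell on mfn2-/- replicate 4, and mfn2-/- replicate 2 had the largest, 3.75.

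Precision was low for most members, and this bounds what the count of 0 says. The median of the members' mean levels was 30.0 normalized reads against 89.6 over all genes tested, and the median standard error of the log2 difference was 1.25 against 0.63. Of the 67 members, 37 (55.2%) had 0 reads in at least 1 library, against 32.4% of all genes tested. The 95% confidence interval of limma lay within a log2 difference of 1 in either direction for 1 member and within 2 for 17, while for 44 it reached past 1 in both directions. For most members these libraries could therefore not tell a change of that size from none.

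**Figure D2:**
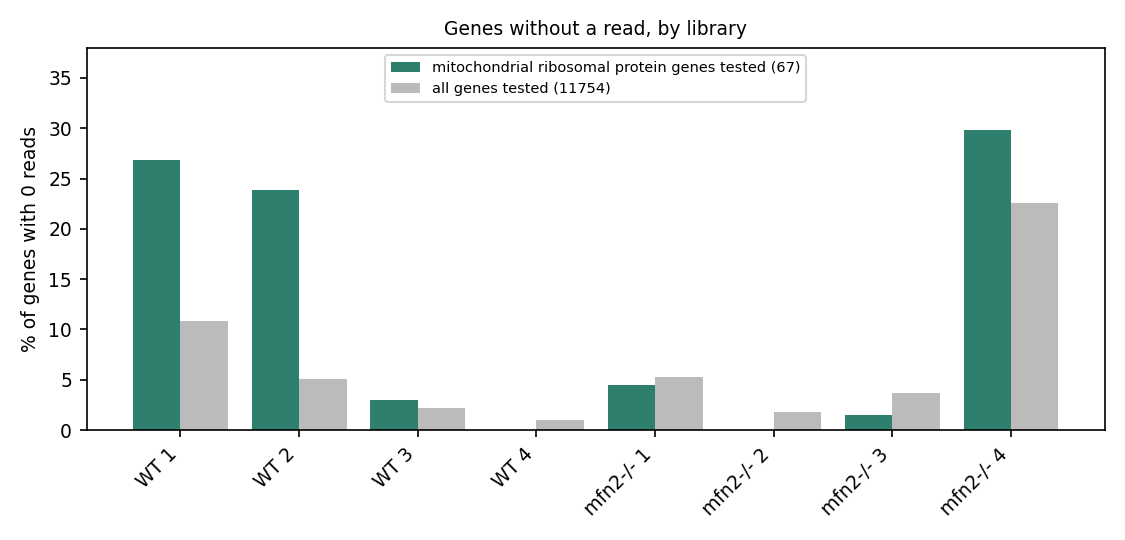
Percentage of the 67 tested members (green) and of all 11754 genes tested (grey) with 0 reads, in each of 8 libraries. Members without a read were 26.9% and 23.9% in wild-type replicates 1 and 2 and 29.9% in mfn2-/- replicate 4, and at most 4.48% in the other 5 libraries.

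Zeros were gathered in 3 libraries. In wild-type replicates 1 to 4, 18, 16, 2 and 0 of the 67 tested members had no read, or 26.9%, 23.9%, 2.99% and 0%. In mfn2-/- replicates 1 to 4 the counts were 3, 0, 1 and 20, or 4.48%, 0%, 1.49% and 29.9%. Over all genes tested the shares were 10.8%, 5.10%, 2.19% and 0.995% in wild-type and 5.24%, 1.77%, 3.73% and 22.6% in mfn2-/- libraries. Wild-type replicate 2 had 4080836 reads and a median of 26 reads per tested member, yet 16 members at 0, while mfn2-/- replicate 2 with 5115404 reads and a median of 30 had 0. The 30 members with a read in every library had a median log2 difference of 0.16 by genotype.

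The members leaned to opposite sides by subunit, without a single call behind it. Median log2 differences (mfn2-/- minus wild-type) were 0.57 for the large subunit, with 28 members positive and 13 negative, and -0.73 for the small subunit, with 8 positive and 18 negative. Over all 67 members the median was 0.22, and over all genes tested -0.16. Mfn2-/- replicate 4 carried much of the small-subunit value: without it the medians were 0.33 for the large and -0.069 for the small subunit. Without wild-type replicate 1 the large-subunit median was 0.11. The median over all members turned to -0.096 without wild-type replicate 1 and to -0.094 with DESeq2, and with quantile normalization it was 0.58 for the members and 0.13 for all genes. For the 15 large-subunit members with a mean of at least 50 the median was 0.28, and for 8 small-subunit members -0.29. On the list used here, members with a bacterial relative had a median of 0.28 (39 tested) and those specific to mitochondria 0.05 (28 tested). The classes are approximate. The list put Mrpl55 with the former, and Mrps18a and Mrps18b with the latter, although their paralog Mrps18c was put with the former. Within the small subunit by symbol these medians were -0.44 (14 tested) and -1.19 (12 tested). The latter value includes Mrps30 and Mrps18a, known as large-subunit proteins. Within the large subunit the medians were 0.36 (25 tested) and 0.59 (16 tested).

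**Figure D3:**
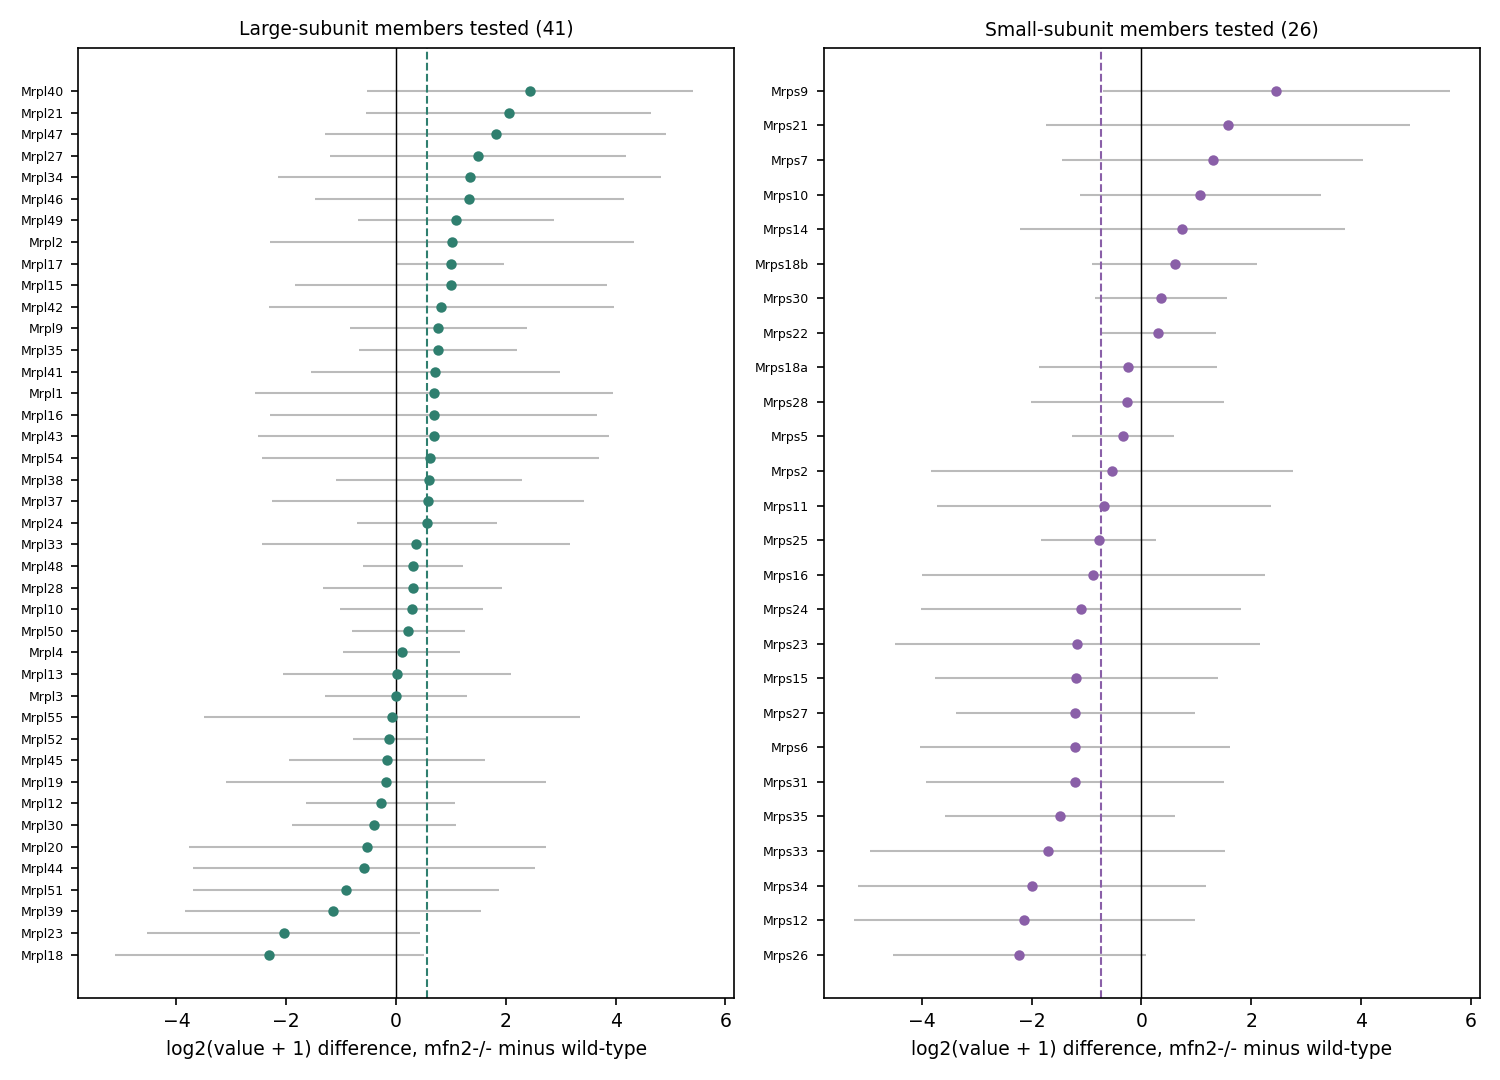
Log2(value + 1) difference (mfn2-/- minus wild-type, 4 libraries each) of the 41 large-subunit and 26 small-subunit members tested, ranked, with the 95% confidence interval of limma as grey lines and the median of each subunit dashed (0.57 and -0.73). The intervals of all members but Mrpl17 reach 0, and its adjusted p was 0.189.

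Large-subunit members with a low p or a large difference were led by Mrpl17. Mrpl17 had 114, 114, 86.6 and 110 normalized reads in wild-type replicates 1 to 4 and 159, 135, 158 and 585 in mfn2-/- replicates 1 to 4. All mfn2-/- values lay above all wild-type values, and mfn2-/- replicate 4 stood far above the rest. The log2 difference was 1.00 (SE 0.45, limma adjusted p = 0.189), and the two-sided exact permutation test gave p = 0.0286, the smallest that 4 against 4 libraries allow. Any gene whose groups do not overlap gets this p, and 19.5% of all genes tested had no overlap. Mrpl17 and Mrps35 were singled out after their values were seen.

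Mrpl40, a large-subunit protein specific to mitochondria, had 0, 0, 30.2 and 12.8 normalized reads in wild-type libraries and 11.3, 12.6, 30.2 and 71.5 in mfn2-/- replicates 1 to 4. The wild-type replicates with Y-linked reads lay within the mfn2-/- range, and those without had no read at all. Its log2 difference of 2.45 (SE 1.38) had a limma adjusted p of 0.299. Mrpl21 had 50.0, 0, 60.4 and 35.3 in wild-type and 43.3, 44.2, 146 and 114 in mfn2-/- replicates 1 to 4, with a log2 difference of 2.05 (SE 1.20, limma adjusted p = 0.322). Here mfn2-/- replicates 3 and 4 lay above every wild-type value and mfn2-/- replicates 1 and 2 among them. Its exons overlap those of Ighmbp2 on the opposite strand in GENCODE M21, and the strand setting of the counting is not given in the sources used here. Mrpl47, whose bacterial relative sits at the rim of the exit tunnel, had 20.5, 0, 1.63 and 2.14 in wild-type and 1.33, 11.1, 7.37 and 115 in mfn2-/- libraries, with a log2 difference of 1.82 (SE 1.44, limma adjusted p = 0.472). The value of 115 in mfn2-/- replicate 4 set its mean, and its exons overlap those of Ndufb5 and Actl6a on the opposite strand.

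On the lower side, Mrpl23, a protein of the exit tunnel region, had 50.0, 20.7, 22.9 and 37.9 in wild-type and 15.3, 11.1, 16.9 and 0 in mfn2-/- replicates 1 to 4. The groups did not overlap. The log2 difference was -2.05 (SE 1.16, limma adjusted p = 0.301). The exact permutation test gave p = 0.0286, which follows from the lack of overlap and adds nothing to it. Mrpl18, the relative of the bacterial protein that holds the 5S ribosomal RNA, had 84.1, 124, 386 and 312 in wild-type and 112, 136, 139 and 0 in mfn2-/- replicates 1 to 4. Wild-type replicates 3 and 4 were above every mfn2-/- library, and wild-type replicates 1 and 2 lay among them. Its log2 difference was -2.31 (SE 1.30, limma adjusted p = 0.301), and the 0 in mfn2-/- replicate 4 stood against 188 reads in mfn2-/- replicate 3. Mrpl18 shares 141 exonic bases with Tcp1 on the opposite strand.

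**Figure D4:**
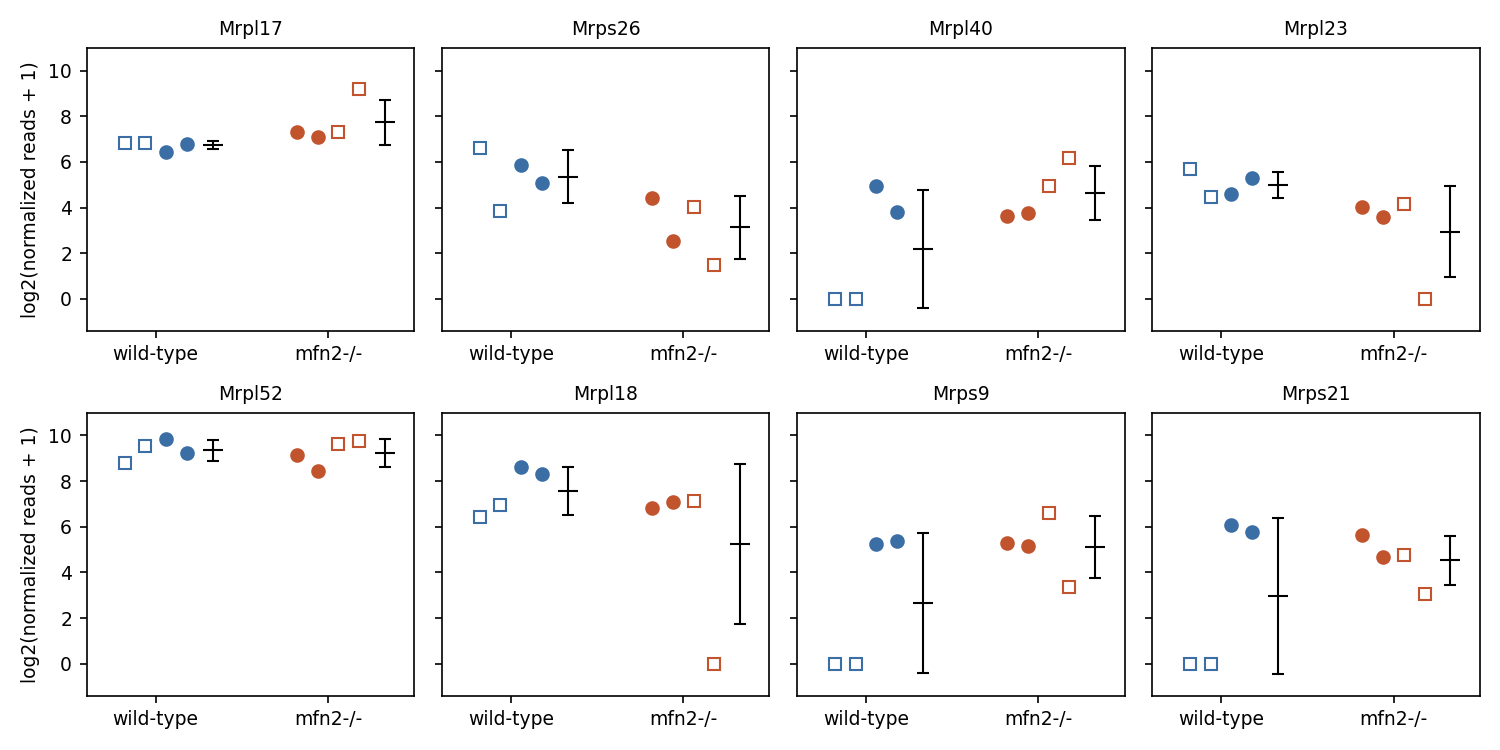
Log2(normalized reads + 1) of 8 members in the 4 wild-type and 4 mfn2-/- libraries. Filled circles are libraries with Y-linked reads, open squares those without, and black bars give the mean ± SD of the log2 values. Mrpl17 and Mrpl23 separate the groups, Mrpl52 overlaps (677 ± 205 and 636 ± 233 normalized reads), and Mrpl40, Mrps9 and Mrps21 have 0 reads in wild-type replicates 1 and 2.

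Among small-subunit members, Mrps26, specific to mitochondria, had 95.5, 13.5, 56.3 and 33.1 normalized reads in wild-type libraries and 20.7, 4.74, 15.5 and 1.83 in mfn2-/- replicates 1 to 4. Only wild-type replicate 2 fell among the mfn2-/- values. The log2 difference was -2.22 (SE 1.07, limma adjusted p = 0.218), and the exact permutation p was 0.0857. Mrps12, which lines the decoding centre, had 59.1, 5.19, 0 and 10.2 in wild-type and 0, 10.3, 0 and 0 in mfn2-/- libraries. Its highest value was in the shallowest library, and the log2 difference was -2.13 (SE 1.44, limma adjusted p = 0.395). Mrps34 had 50.0, 0, 18.8 and 20.8 in wild-type and 0, 9.48, 7.37 and 0 in mfn2-/- replicates 1 to 4, with a log2 difference of -1.99 (SE 1.47, limma adjusted p = 0.437), and shares exonic bases with Nme3 and Mapk8ip3. Mrps35 had 22.7, 25.9, 26.1 and 42.7 in wild-type and 2.67, 11.1, 14.7 and 16.5 in mfn2-/- libraries, without overlap. Its log2 difference was -1.49 (SE 0.97, limma adjusted p = 0.378).

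Positive log2 differences were seen for Mrps9 and Mrps21, whose bacterial relatives are small-subunit proteins. Mrps9 had 0, 0, 36.7 and 40.1 in wild-type and 38.7, 34.8, 97.3 and 9.16 in mfn2-/- replicates 1 to 4, with a log2 difference of 2.46 (SE 1.46, limma adjusted p = 0.331). Mrps21 had 0, 0, 66.97 and 52.9 in wild-type and 48.7, 24.5, 26.5 and 7.33 in mfn2-/- libraries. Its log2 difference of 1.58 (SE 1.54, limma adjusted p = 0.568) was positive although its mean was lower in mfn2-/- (26.8 ± 16.96) than in wild-type ASCs (30.0 ± 35.1), and it turned negative with DESeq2 (-0.17). As for Mrpl40, the difference came from wild-type replicates 1 and 2, which had no read.

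The most abundant member per kilobase of exon was Mrpl52, at 592 normalized reads per kb over all libraries. It had 439, 753, 917 and 598 normalized reads in wild-type libraries and 556, 344, 792 and 852 in mfn2-/- replicates 1 to 4. The groups overlapped throughout, with a log2 difference of -0.12 (SE 0.31, 95% confidence interval -0.78 to 0.54, limma adjusted p = 0.841), the narrowest standard error of all members. With library weights the log2 difference was -0.66 (limma adjusted p = 0.0502). Next per kb in the large subunit came Mrpl18 (116), Mrpl50 (56.0) and Mrpl24 (51.5), and in the small subunit Mrps6 (44.2), Mrps28 (41.9), Mrps21 (38.4) and Mrps27 (29.4). Mrpl50 had 105 ± 37.7 in wild-type ASCs and 131 ± 68.1 in mfn2-/- ASCs. Mrpl24 had 54.7 to 108 in wild-type and 60.8 to 90.0 in mfn2-/- replicates 1 to 3, but 387 in mfn2-/- replicate 4, and shares 594 exonic bases with Rrnad1 on the opposite strand. Mrps6 and Mrps27, at 55.3 to 116 and 49.8 to 85.5 in mfn2-/- replicates 1 to 3, had 0 and 1 read in mfn2-/- replicate 4, and Mrps6 shares exonic bases with Slc5a3 on the same strand. Mrps28 overlapped between the groups, at 37.0 ± 25.0 and 28.6 ± 13.1. None of the 8 had an adjusted p under 0.3, Mrpl18 being the lowest at 0.301.

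Members chosen for their role overlapped between the groups, and their intervals were wide. Mrpl12, which also binds the mitochondrial RNA polymerase, had 171, 51.9, 55.5 and 41.1 in wild-type and 34.005, 41.1, 84.7 and 78.8 in mfn2-/- replicates 1 to 4, with a log2 difference of -0.27 (95% confidence interval -1.63 to 1.08). Mrpl3, a core large-subunit protein, had 40.9, 121, 45.7 and 43.3 in wild-type and 40.0, 56.1, 66.3 and 66.0 in mfn2-/- libraries, and its interval ran from -1.29 to 1.29. Mrps7, a protein of the small-subunit head, had 91.0, 0, 64.5 and 30.5 in wild-type and 86.7, 49.8, 66.3 and 21.99 in mfn2-/- ASCs. Both members assigned to the large subunit by structure overlapped between the groups, Mrps30 with 69.4 ± 35.8 and 84.9 ± 31.9 and Mrps18a with 59.3 ± 43.9 and 42.1 ± 16.9. Mrps18b, a paralog of Mrps18a and Mrps18c, had 33.6 ± 13.5 and 51.7 ± 18.8 (log2 difference 0.61, 95% confidence interval -0.90 to 2.11). How reads were split between these paralogs was not tested, so their values are uncertain.

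The remaining 9 members had a mean under 10 and were not tested. Mrpl22 was at 0 in 6 of the 8 libraries, with 14 reads in mfn2-/- replicate 1 and 18 in mfn2-/- replicate 3. Mrpl36 had 4, 9, 11 and 4 reads in wild-type and 0, 2, 0 and 0 in mfn2-/- replicates 1 to 4, and was the 1 untested member whose groups did not overlap. This separation is not secure. The 0 in mfn2-/- replicate 4 may stand for up to 5.50 normalized reads, more than the 4 reads of wild-type replicate 4 are worth. Mrpl36 also shares 30 exonic bases with Ndufs6 on the opposite strand. Mrpl32, which is processed by the m-AAA protease before it joins the ribosome, had 0, 0, 17 and 1 reads in wild-type and 28, 12, 50 and 0 in mfn2-/- replicates 1 to 4. Mrps18c had a read in 2 libraries (8 in wild-type replicate 4 and 2 in mfn2-/- replicate 2). Mrpl11, a protein of the site where translation factors bind, averaged 10.3 ± 11.9 in wild-type ASCs and 3.33 ± 3.67 in mfn2-/- ASCs. Means of the other 4 in the 2 groups were 5.81 and 1.42 for Mrpl14, 4.97 and 5.79 for Mrpl53, 12.99 and 5.03 for Mrps17 and 11.8 and 4.51 for Mrps36.

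Genotype differences were next computed within the libraries with Y-linked reads and within those without, with 2 libraries of each genotype in each and 1 mean per combination in the limma fit. With Y-linked reads, mfn2-/- replicates 1 and 2 are set against wild-type replicates 3 and 4. Without them, mfn2-/- replicates 3 and 4 are set against wild-type replicates 1 and 2. Genotype and the pair of replicate numbers can therefore not be told apart in any value within a kind, here or below. With Y-linked reads the members' median was -0.22 (large subunit -0.09, small subunit -0.76), and without it was 0.65 (large subunit 1.27, small subunit -0.28). Of the 67 members, 33 had opposite signs in the 2 kinds, 25 of them negative with and positive without Y-linked reads. With Y-linked reads 0 members were called by limma, where 8.56% of all genes were, and 1 (Mrpl52) had an unadjusted p under 0.05, where 18.5% of all genes did. Without Y-linked reads 1 member was called, Mrpl40, where 9.83% of all genes were, and 6 (Mrpl17, Mrpl21, Mrpl40, Mrps9, Mrps12 and Mrps21) had an unadjusted p under 0.05, where 27.6% of all genes did. By edgeR 0 members were called in either kind, with 0 and 4 at an unadjusted p under 0.05. The libraries without Y-linked reads include all 3 with many zeros.

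**Figure D5:**
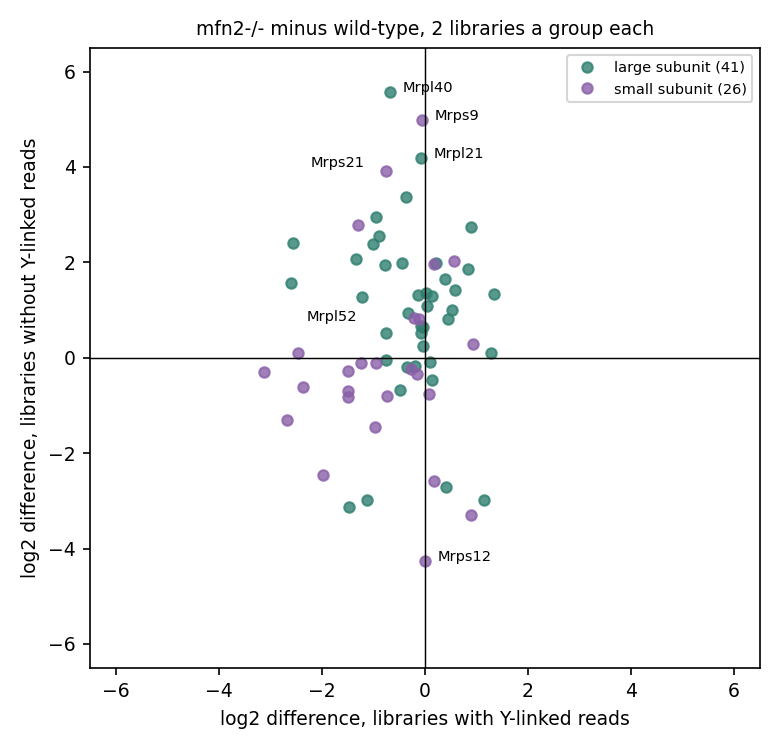
Log2 difference (mfn2-/- minus wild-type) of each of the 67 tested members among the 4 libraries with Y-linked reads (horizontal) and the 4 without (vertical), with 2 libraries per genotype in each. The spread is wider without Y-linked reads, from 5.57 (Mrpl40) to -4.27 (Mrps12), and 33 members change sign between the axes.

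Mrpl40 compared 0 and 0 with 41 and 39 reads in the libraries without Y-linked reads, at least 10.2-fold higher in mfn2-/- ASCs with 3 reads per wild-type library as the floor (limma adjusted p = 0.0332). This bound, like that of Mrps9 below, covers only the counting error of the wild-type zeros, not the spread between libraries. The bound was 14.4-fold without mfn2-/- replicate 3 and 6.08-fold without mfn2-/- replicate 4. By edgeR the adjusted p was 0.0690, and with no filter on low values it was 0.0715. Leaving out any 1 of the 8 libraries other than mfn2-/- replicate 3 took it to 0.0562 to 0.101. With Y-linked reads its log2 difference was -0.68. The difference between these 2 differences had an unadjusted p of 0.00917 and an adjusted p of 0.217. For Mrps9 the same 2 wild-type libraries had 0 reads against 132 and 5, at least 10.7-fold higher in mfn2-/- ASCs, with a limma adjusted p of 0.0592. That bound rested on mfn2-/- replicate 3, without which it was 1.84-fold. Over all members 0 differed by an adjusted p under 0.05 between the kinds by limma, where 1.47% of all genes did, and 4 (Mrpl40, Mrpl52, Mrps9 and Mrps21) had an unadjusted p under 0.05, where 12.0% of all genes did. By edgeR these counts were 0 and 5. Mrpl52 was lower with Y-linked reads (-0.76) and higher without (0.51).

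That contrast also sets replicates 1 and 2 against 3 and 4 of both genotypes, because the libraries with Y-linked reads are wild-type 3 and 4 and mfn2-/- 1 and 2, so the difference between the kinds and the pair of replicate numbers cannot be told apart. Within replicates 1 and 2 the members' median was 0.16 (large subunit 0.36, small subunit -0.18), and within replicates 3 and 4 it was -0.35 (large subunit -0.04, small subunit -1.53). Within replicates 1 and 2, 0 members were called by limma (6.43% of all genes) and 5 had an unadjusted p under 0.05 (19.9% of all genes), which were Mrpl2, Mrpl40, Mrpl42, Mrps9 and Mrps21. Within replicates 3 and 4, 0 members were called (11.6% of all genes) and 3 had an unadjusted p under 0.05 (27.1% of all genes), which were Mrpl17, Mrpl18 and Mrpl50. The split into these pairs was chosen with the data in view. Within each pair the libraries of 1 genotype hold Y-linked reads and those of the other hold none. Genotype and kind can therefore not be told apart within a pair.

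Other genes of mitochondrial translation gave 1 call by genotype. Of 13 translation factors tested, 1 was called higher, where 3.99% of all genes were, and 0 lower, with a median log2 difference of -0.37. In either direction 10.4% of all genes were called. The called gene was Mrrf, the mitochondrial ribosome recycling factor, which releases the ribosome from the messenger after termination. It had 127, 137, 48.2 and 87.6 normalized reads in wild-type libraries and 245, 273, 307 and 257 in mfn2-/- replicates 1 to 4. Every mfn2-/- library lay above every wild-type library, with a log2 difference of 1.53 (SE 0.37, limma adjusted p = 0.0195). The log2 difference of Mrrf was 1.98 with Y-linked reads (limma adjusted p = 0.0181) and 1.08 without (adjusted p = 0.141), and over all libraries edgeR gave an adjusted p of 0.0189. Leaving out wild-type replicate 4, mfn2-/- replicate 2 or mfn2-/- replicate 3 took the limma adjusted p to 0.0504, 0.0569 and 0.0616, and limma without a trend gave 0.0603.

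Further lists held 7 mitochondrial ribosomal subunits under other symbols (median -0.33), 18 assembly factors (median -0.01) and 15 mitochondrial aminoacyl-tRNA synthetases (median -0.44). With limma 0 of them were called by genotype, where 10.4% of all genes were. An unadjusted p under 0.05 was found for 0, 2 and 1 of them, and for 24.8% of all genes. On whole reads edgeR called 0 of these genes (9.85% of all genes). DESeq2 called 1, the assembly factor Trub2 (14.8% of all genes). Lars2, which charges the mitochondrial leucine tRNA, had 237, 141, 114 and 121 in wild-type and 115, 104, 12.5 and 49.5 in mfn2-/- replicates 1 to 4. It was lower among the libraries without Y-linked reads (log2 difference -2.81, limma adjusted p = 0.0376), where 9.83% of all genes were called. Among those with Y-linked reads its log2 difference was -0.10, a difference between the kinds with a limma adjusted p of 0.314. Over all 8 libraries its adjusted p was 0.184. Cytosolic ribosomal protein genes, measured at a median of 448 normalized reads, had 6 of 74 (8.11%) called higher, where 3.99% of all genes were, and 0 lower, with a median log2 difference of 0.46 and a median standard error of 0.36. Within replicates 1 and 2, 2 of them were called higher and 2 lower, and within replicates 3 and 4, 30 were called higher (40.5%, against 5.35% of all genes) and 0 lower. Within each pair genotype coincides with the presence or absence of Y-linked reads, so these calls cannot be assigned to genotype.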

How the data were processed

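Total RNA of the sorted cells (RNeasy Micro) was made into stranded low-input libraries (SMARTer pico) by the authors. The submitters' processing notes name Trim Galore, HISAT2, featureCounts, DESeq2 and build mm9, and strand setting and annotation are not given in the sources used here. The authors deposited, for each gene, a signal that is its read count divided by a size factor. In each library 100% of values were whole multiples of 1 step (tolerance 0.02), from which whole reads were recovered. Amplified copies cannot be told from separate molecules, so intervals and floors cover counting error only. Groups and replicate numbers came from the titles. Nothing says that replicates were separate mice, so p-values measure the spread between these libraries.

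Genes with a mean of at least 10 (11754) were tested with limma 3.58.1 (R 4.3.3, intensity trend, log2(value + 1), Benjamini-Hochberg over all genes, two-sided), which understates changes of weak genes. Alternatives were pseudocounts of 0.1 and 10, no filter or a mean of at least 50, other scalings, a replicate block, no trend, library weights, Y-linked reads as a term, each library left out, and edgeR 4.0.16 and DESeq2 1.42.0 on recovered reads. The fit was tested on simulated data. Python 3.11.15 was used for tables.

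The members and lists were chosen with earlier results of these data known. Named were members called, the 5 most positive and negative differences, the 4 highest per kb of each subunit, called or else the 4 smallest p between the kinds, 10 chosen by role, the untested members, and called genes of the other translation lists. Overlaps and exon lengths are from GENCODE M21 (GRCm38), not the build of the files. Coordinates are given for the promoter windows only, and these are of GRCm38.p6, likewise not the build of the files. The E-box and other motifs were counted on both strands.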

Additional observations from a re-analysis of the deposited data

Results flagged for a closer look

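For a group of 4 libraries, a value was flagged when its gap to the nearest other, as a share of the range, passed Dixon's critical value at the 95% level. For independent normal values chance would flag about 1 in 20, or 2.7 of the 54 groups examined. The items here share libraries and members and hold zeros, so that rate is no measure of chance for them. In all, 7 groups were flagged. Of these, 3 were in mfn2-/- replicate 4, which held 20 tested members at 0 reads against 0 to 3 in the other mfn2-/- libraries, and in which Mrpl24 had 387 normalized reads (others 60.8 to 90.0) and Mrpl47 had 115 (others 1.33 to 11.1). In wild-type replicate 1, the shallowest library, Mrpl12 had 171 normalized reads (others 41.1 to 55.5) and Mrpl47 had 20.5 (others 0 to 2.14). Mrpl3 had 121 in wild-type replicate 2 (others 40.9 to 45.7). Mrps12 had 10.3 in mfn2-/- replicate 2 and 0 in the other mfn2-/- libraries.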

How the results depend on the processing

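Of the 67 intervals, 44 reached past a log2 difference of 1 both ways. Members called by genotype numbered 0 under 22 of 23 alternatives and 1 with library weights. All genes called were 1217, 633 without a trend, 3037 with library weights and 671 to 1331 with 1 library left out (671 without wild-type replicate 3 and 749 without wild-type replicate 4). Relative to the median of all genes, the large-subunit median stayed above (0.17 to 0.81) and the small-subunit median below (-0.78 to -0.04) under all 23 alternatives, and the median of all members stayed above by 0.0037 to 0.47. A replicate block, no trend, and Y-linked reads or the pair of replicate numbers as a term cannot change these medians. In this balanced design they alter only the standard errors, so their agreement adds nothing. In absolute terms the members' median was 0.58 with quantile normalization, -0.094 with edgeR and DESeq2 size factors and -0.094 with DESeq2, and -0.096 to 0.27 with 1 library left out. The large-subunit median was 0.049 with library weights, 0.19 in both fits with DESeq2 size factors and 0.11 to 0.69 with 1 library left out. The small-subunit median was 0.022 with quantile normalization and -0.97 to -0.069 with 1 library left out. The causes were not tested.

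With Y-linked reads, 1 member was called with library weights (Mrpl52), 0 to 1 with 1 library left out (Mrpl18 without mfn2-/- replicate 4), and the median was 0.28 with quantile normalization. Without Y-linked reads, 2 were called with a pseudocount of 0.1, quantile normalization or no trend, 0 with no filter, a mean of at least 50 (which drops Mrpl40), library weights or edgeR, and 0 to 9 with 1 library left out. The 9 of 67 came without mfn2-/- replicate 3, where mfn2-/- replicate 4 stood alone and was assumed to vary like the others, and where 30.2% of all genes were called. With Y-linked reads, library weights called 24.6% of all genes. Without Y-linked reads, all genes called were 7.64%, 11.2% and 5.07% with a pseudocount of 0.1, quantile normalization and no trend. They were 3.89%, 13.6%, 3.27% and 7.57% with no filter, a mean of at least 50, library weights and edgeR. The median there was 1.03 with quantile normalization and 0.28 to 1.01 with 1 library left out. For the difference between the kinds, 0 to 6 members were called with 1 library left out (6 of 67 without mfn2-/- replicate 3, where 11.4% of all genes were), and the median was -0.64 with a pseudocount of 10, -0.69 with a mean of at least 50 and -1.65 to -0.62 with 1 library left out. The wild-type ratio of large to small was 1.53 without Mrpl52 and 0.996 from mean log2 values per member, by which the mfn2-/- ratio was 1.77 ± 0.59. Without the 100 most abundant genes the members' share was 0.135% in wild-type and 0.138% in mfn2-/- ASCs. With the shorter window the members' motif shares stayed within their intervals, and those of genes tested fell to 14.4% for the ETS motif and 7.77% for the E-box.

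Of 493 alternative values for 22 named members, 467 kept sign and side of the threshold, 1 passed it (Mrps26, above) and 25 changed sign in 11 members, none with a call. These values include the settings named above that alter only the standard errors, in which the sign could not change. Quantile normalization gave 0.44 for Mrpl3, 0.12 for Mrpl12, 0.49 for Mrps18a and 0.29 for Mrps28. Library weights gave 0.11 for Mrpl3, -0.073 for Mrpl24, 0.62 for Mrps6, -0.026 for Mrps21 and 0.0014 for Mrps27. Equal totals and upper-quartile scaling gave 0.044 and 0.042 for Mrpl3. For Mrps21, edgeR gave -0.092, edgeR with DESeq2 size factors -0.17 and DESeq2 -0.17. With 1 library left out the values ran from -0.15 to 0.36 for Mrpl3, -0.51 to 0.17 for Mrpl12, -0.025 to 0.86 for Mrpl24, -0.045 to 0.53 for Mrpl50, -0.31 to 0.14 for Mrpl52, -1.93 to 0.36 for Mrps6, -0.16 to 2.01 for Mrps7, -0.63 to 0.17 for Mrps18a and -0.52 to 0.14 for Mrps28.

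The replicate number as a block gave 1043 genes and 0 members called. Deviations of same-numbered libraries correlated weakly (r of -0.03, -0.05, 0.04 and -0.11). From these values it cannot be told whether the numbers pair the samples. The library pair as a term, chosen after seeing the data, gave 1440 genes and 0 members.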
